A study of Mus musculus with 2 samples.

Results

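The transcripts of 7 mouse transcription factor genes were described in embryonic forebrain: Zic1, Zic2, Zic4 and Zic5 of the Zic zinc finger family, the homeobox genes Otx1 and Otx2, and the nuclear receptor gene Nr2e1. They were chosen by name, as regulators of forebrain regions, with earlier results of these data known. They were found by gene identifier, which gave a row for 7 of 7 among 42442 named mouse genes. The RNA was total RNA from the forebrain of healthy B6NCrl embryos at embryonic day 12.5, with no treatment or altered allele in the labels. The study had 1 group of 2 biological replicates, each a pool that mixed male and female embryos: 120 embryos in replicate 1 and 68 in replicate 2. Because each library is a pool of a whole region, variation between embryos cannot be seen in it. Expected counts, which are estimated reads per gene, summed to 33711030 in replicate 1 and 34578499 in replicate 2. Spike-in RNAs of known sequence held 9.19% and 8.25% of the deposited TPM (a level per unit of transcript length, scaled to a fixed total) in replicates 1 and 2.

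Zic proteins bind DNA through zinc fingers related to those of the Gli factors of the hedgehog pathway, and are used in the dorsal neural tube, the roof plate, the septum and the meninges. In mammals these 4 Zic genes lie as divergent neighbours, Zic1 beside Zic4 and Zic2 beside Zic5. Otx proteins carry a homeodomain related to that of fly orthodenticle. Otx2 is needed to form the anterior neural plate and is later used in the diencephalon, the midbrain, the dorsal midline and the choroid plexus, and Otx1 is used in cortical progenitors. Nr2e1, also called Tlx, is an orphan nuclear receptor of neural progenitors that represses transcription together with histone deacetylases and the demethylase Kdm1a.

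With 2 libraries of 1 group there is no comparison between conditions, and a sign-flip test over 2 samples cannot give a p below 0.5. Levels are therefore given in each pool, as mean ± SD (n = 2), and beside the deposited TPM interval, which covers counting and read assignment error only and whose level the sources used here do not give. Markers of the labelled tissue were present. Emx2 of the cortex had 48.60 TPM in replicate 1 against 57.21 TPM in replicate 2, and Dlx2 of the ganglionic eminences had 109.3 and 70.84 TPM. Of 12 listed midbrain and hindbrain genes, 2 reached 1 TPM in both pools, Gata3 (2.63 and 8.95 TPM) and Tal2 (2.51 and 4.36 TPM), and En2 and Hoxa2 were at 0 in both. Of 10 listed eye genes 2 reached it, the pigment cell gene Dct (7.55 and 6.70 TPM) and the retinal field gene Rax (2.75 and 3.72 TPM), and Rpe65 was at 0 in both. The pigment gene Pmel had 0.71 TPM in replicate 1 against 3.61 TPM in replicate 2.

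At a threshold of 1 TPM in both pools, 7 of the 7 genes were detected, against 34.5% of all named mouse genes. The 7 genes were chosen with earlier results of these data known, so this count and the median below may follow from the choice. Their summed level was 247.75 TPM in replicate 1 against 251.71 TPM in replicate 2. The median of their mean levels was 28.4 TPM, beside 17.0 TPM over the 15188 named genes with a mean of 1 TPM or more. From the highest mean level to the lowest, the order was Nr2e1, Zic4, Otx2, Otx1, Zic5, Zic2 and Zic1.

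**Figure D1:**
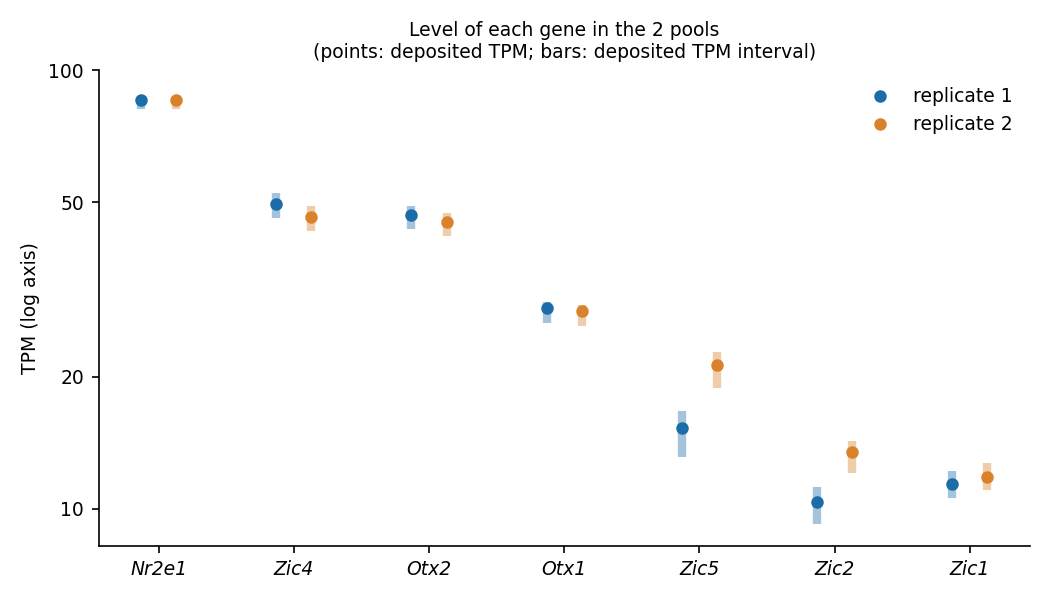
TPM (vertical log axis) of each gene in replicate 1 (blue) and replicate 2 (orange); points are the deposited TPM and bars the deposited TPM intervals. Nr2e1 is the highest in both pools, and the bars of Zic5 and of Zic2 do not overlap between the pools.

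Nr2e1 was the most abundant of the 7. It had 85.76 TPM in replicate 1 against 85.49 TPM in replicate 2 (85.6 ± 0.191), from 5461 and 5612 expected counts. The deposited intervals, 81.7 to 86.8 TPM in replicate 1 and 81.4 to 86.7 TPM in replicate 2, lay almost on top of each other. Its mean ranked 2081 among the 15188 genes. The gene (ENSMUSG00000019803) lies on the minus strand of chr10:42561963-42583632 of GRCm38. Nr2e1 exceeded Zic4, the next gene, by 0.78 on the log2 scale of TPM + 1 in replicate 1 and by 0.87 in replicate 2, and its mean TPM was 1.79 times that of Zic4. A pair of genes is called separated where the difference has the same sign in both pools and its smaller size exceeds the larger change of either gene between pools. Nr2e1 and Zic4 were separated.

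The Otx genes held the middle of the order. Otx1 had 28.69 TPM in replicate 1 against 28.20 TPM in replicate 2 (28.4 ± 0.346; 1660 and 1681 expected counts; rank 5633). Otx2 had 46.75 TPM in replicate 1 against 45.14 TPM in replicate 2 (45.9 ± 1.14; 1633 and 1631 expected counts; rank 3938). The expected counts of the 2 genes were close, while the effective length of their transcripts was 2871 bases for Otx1 and 1733 bases for Otx2 in replicate 1. The log2 ratio of Otx1 over Otx2 was -0.69 in replicate 1 and -0.66 in replicate 2, and Otx1 was lower in both pools, a separated pair. Otx2 and Zic4 were not separated: Zic4 was above Otx2 by 0.08 and 0.04 on the log2 scale in replicates 1 and 2, less than the change of Zic4 between pools (0.09). Otx1 (ENSMUSG00000005917) lies on the minus strand of chr11:21994764-22002897 and Otx2 (ENSMUSG00000021848) on the minus strand of chr14:48657677-48673819. Crx, the photoreceptor gene that is the third mammalian Otx relative, had 0 expected counts in both pools. A count of 0 allows up to 0.0844 TPM in replicate 1 against 0.0811 TPM in replicate 2, taking 3 counts as the limit. The upper bounds of the deposited Crx intervals were higher, 0.362 TPM in replicate 1 and 0.349 TPM in replicate 2.

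Among the 4 Zic genes, Zic4 was the highest, with 49.48 TPM in replicate 1 against 46.31 TPM in replicate 2 (47.9 ± 2.24; 2331.99 and 2290.14 expected counts; rank 3770). Zic5 had 15.27 TPM in replicate 1 against 21.26 TPM in replicate 2 (18.3 ± 4.24; 1115 and 1691.76 expected counts; rank 7326). Zic2 had 10.39 TPM in replicate 1 against 13.47 TPM in replicate 2 (11.9 ± 2.18; 467 and 625 expected counts; rank 8801). Zic4 stood well above the others in both pools, while Zic5 and Zic2 differed most between pools on the log2 scale among the 7 genes. Zic1 was the lowest by mean, with 11.41 TPM in replicate 1 against 11.84 TPM in replicate 2 (11.6 ± 0.304; 1238 and 1340 expected counts; rank 8878).

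Of the summed TPM of these 4 genes, Zic4 held 53.5 ± 5.17%, Zic5 20.3 ± 3.71%, Zic2 13.3 ± 1.77% and Zic1 12.97 ± 0.308%. Zic5 was separated from Zic2, with a mean TPM 1.53 times as high, but not from Otx1, which was above Zic5 by 0.87 in replicate 1 and by 0.39 in replicate 2 on the log2 scale while Zic5 itself moved by 0.45 between pools. Zic1 and Zic2 had no stable order: the log2 ratio of Zic1 over Zic2 was 0.12 in replicate 1 and -0.17 in replicate 2.

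The divergent neighbours differed in level within both loci. On chromosome 9, Zic1 (ENSMUSG00000032368, minus strand, chr9:91358058-91365810) and Zic4 (ENSMUSG00000036972, plus strand, chr9:91362413-91389348) have annotated spans that overlap by 3398 bases, of which 60 are exon in both. The log2 ratio of Zic1 over Zic4 was -2.02 in replicate 1 and -1.88 in replicate 2, and the pair was separated. On chromosome 14, Zic2 (ENSMUSG00000061524, plus strand, chr14:122475435-122479852) and Zic5 (ENSMUSG00000041703, minus strand, chr14:122456795-122465677) lie 9757 bases apart. The log2 ratio of Zic2 over Zic5 was -0.51 in replicate 1 and -0.62 in replicate 2, again separated. Across the loci, Zic4 was above Zic5 by 1.63 in replicate 1 and by 1.09 in replicate 2. Over protein-coding transcripts alone, an alternative chosen after the data were seen, the mean log2 ratio was -0.30 for Zic2 over Zic5 and 0.44 for Zic4 over Zic5, neither pair separated, and -0.67 for Zic1 over Zic4, still separated.

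Between the pools, 0 of the 7 genes passed a 1.5-fold difference in either direction on the log2(TPM + 1) scale, where 4.07% of genes with a mean of 1 TPM or more did. Among genes at 10 to 100 TPM, the range that holds the means of all 7, 1.31% did. On the same scale the log2 ratio of replicate 1 over replicate 2 was 0.00 for Nr2e1, 0.02 for Otx1, 0.05 for Otx2, 0.09 for Zic4 and -0.05 for Zic1. The sign for Nr2e1 turned with FPKM (-0.02), so no direction is given for it. The median absolute log2 ratio of genes at 10 to 100 TPM was 0.0827, and of these 5 values that of Zic4 was above it and the others below. The ratio was -0.45 for Zic5 and -0.35 for Zic2, both beyond the 90th percentile of absolute ratios at those levels (0.248).

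Zic5 and Zic2, the neighbours on chromosome 14, were the 2 of the 7 genes whose deposited intervals did not overlap between pools. Intervals lay apart with replicate 2 higher for 6.94% of the genes with a mean of 1 TPM or more, and in either direction for 14.0%. Zic5 had intervals of 13.2 to 16.8 TPM in replicate 1 and 18.8 to 22.8 TPM in replicate 2, and its TPM in replicate 1 was 0.718 times that in replicate 2. Zic2 had intervals of 9.22 to 11.2 TPM in replicate 1 and 12.1 to 14.3 TPM in replicate 2, and its TPM in replicate 1 was 0.771 times that in replicate 2. Both were lower in replicate 1 with TMM and DESeq2 scaling as well (-0.53 and -0.54 for Zic5, -0.35 for Zic2 with both). The noncoding RNA gene 2610035F20Rik, which starts 235 bases from Zic2 on the other strand, had 6.77 TPM in replicate 1 against 8.09 TPM in replicate 2, with intervals that overlapped (5.77 to 7.57 and 6.99 to 8.91 TPM).

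**Figure D2:**
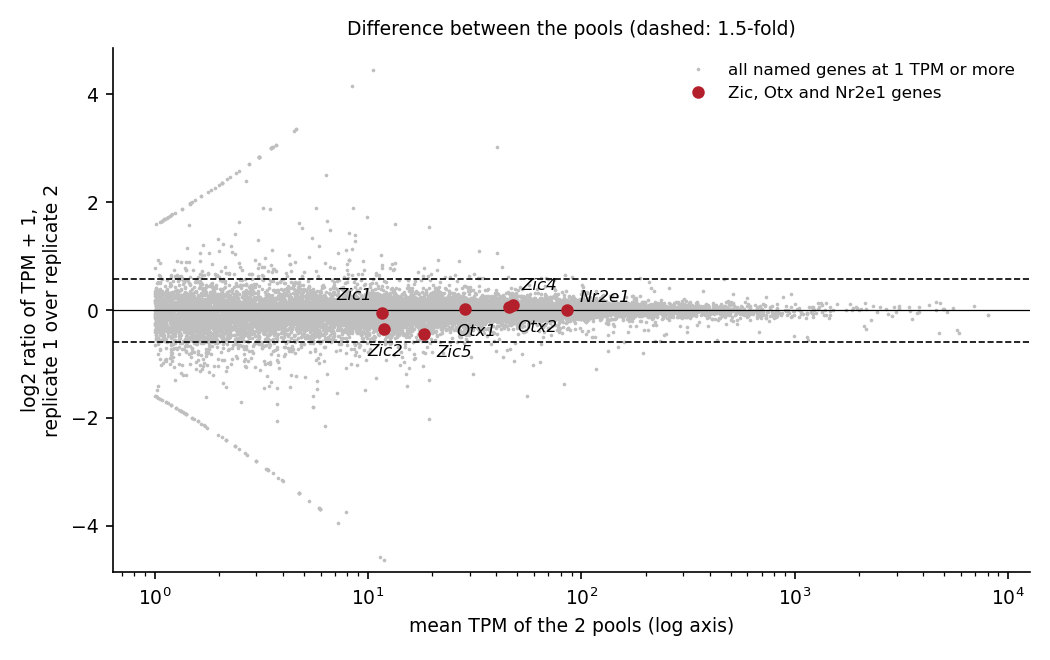
Log2 ratio of TPM + 1 in replicate 1 over replicate 2 (vertical axis) against mean TPM (horizontal log axis) for all named genes with a mean of 1 TPM or more (grey) and the Zic, Otx and Nr2e1 genes (red). No labelled gene passes the dashed 1.5-fold lines, and Zic5 and Zic2 are the lowest of them, at -0.45 and -0.35.

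Most markers of roof plate and hem, choroid plexus and meninges differed between the pools in the same direction as Zic5 and Zic2. In bulk RNA, fewer cells of a type and less RNA per cell cannot be told apart. Of the roof plate and cortical hem genes, 12 of 13 were detected in both pools, and their summed level was 174.70 TPM in replicate 1 against 245.04 TPM in replicate 2. Among the 12, 10 were lower and 2 higher in replicate 1, with a median log2 ratio of -0.42. The 2 higher were Dmrta1 (9.13 TPM in replicate 1 against 6.97 TPM in replicate 2), with intervals that did not overlap, and Lmx1a (6.32 and 5.80 TPM), with intervals that did. Of the 15188 genes with a mean of 1 TPM or more, 8022 were lower and 7117 higher in replicate 1, and their median was -0.01. Past 1.5-fold, 3 were higher in replicate 2, where 2.59% of all such genes were, namely Msx1 (33.12 TPM in replicate 1 against 56.02 TPM in replicate 2), Msx2 (8.07 and 16.17 TPM), both homeobox genes of the dorsal midline, and Dmrt3 (9.68 and 15.56 TPM). Wls, which Wnt secretion needs, had 42.57 TPM in replicate 1 against 57.87 TPM in replicate 2, and the hem gene Wnt8b had 17.59 and 24.71 TPM. Gdf7 was the listed roof plate gene under 1 TPM (0.23 and 0.29 TPM).

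Choroid plexus markers, 6 of 8 detected in both pools, summed to 71.21 TPM in replicate 1 against 120.91 TPM in replicate 2, and 5 of the 6 were lower in replicate 1. Ttr, the transthyretin gene, had 42.93 TPM in replicate 1 against 84.42 TPM in replicate 2, and the channel gene Kcnj13 had 1.63 and 5.12 TPM. Both passed 1.5-fold, while Kl and Cldn2 were under 1 TPM in both pools. The deposited intervals of Ttr did not overlap between the pools, but those of Kcnj13 did (38.44 and 74.04 expected counts). Meningeal genes, 12 of 12 detected, summed to 909.28 TPM in replicate 1 against 1067.33 TPM in replicate 2, and 12 of 12 were lower in replicate 1. Among them, Crabp2 (201.83 and 202.61 TPM) and Aldh1a2 (4.65 and 4.69 TPM) were almost equal in the pools, so their direction is not read. Foxc1, which meningeal development needs, had 3.30 TPM in replicate 1 against 6.13 TPM in replicate 2 and passed 1.5-fold, and the collagen gene Col3a1 had 307.35 and 338.50 TPM. The part of these markers in the Zic5 and Zic2 difference was not tested. Zic1 and Zic4, from the same family, had intervals that overlapped between the pools (10.6 to 12.2 TPM in replicate 1 and 11.0 to 12.7 TPM in replicate 2 for Zic1, 46.0 to 52.4 and 43.1 to 49.0 TPM for Zic4).

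Genes of the septum and Cajal-Retzius cells, in which Zic genes are also used, gave a median log2 ratio of -0.06, with 4 of 12 higher and 8 of 12 lower in replicate 1. The highest were Nhlh2 (36.00 TPM in replicate 1 against 38.18 TPM in replicate 2), Calb2 (34.78 and 25.64 TPM) and Sp8 (23.52 and 20.06 TPM). Fgf17, a signal of the rostral midline, had 11.12 TPM in replicate 1 against 21.85 TPM in replicate 2 and was the 1 gene of that list past 1.5-fold.

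In the diencephalon, where Otx2 is used, 12 of 14 listed genes were detected in both pools, with a median mean level of 12.8 TPM, and of the 13 with a mean of 1 TPM or more, 4 were higher and 9 lower in replicate 1. Tcf7l2, a Wnt effector gene of the thalamus, had 173.51 TPM in replicate 1 against 180.41 TPM in replicate 2, Lhx9 had 30.15 and 36.25 TPM, and Olig3 had 28.10 and 28.60 TPM. Genes of neural progenitors, the cells that use Nr2e1, were detected in 10 of 10 cases, 5 higher and 5 lower in replicate 1, with a median mean level of 78.3 TPM. Vim had 906.33 TPM in replicate 1 against 922.04 TPM in replicate 2, the radial glia gene Fabp7 had 952.08 and 799.59 TPM, and the Notch target Hes5 had 379.41 and 376.24 TPM. The median log2 ratio of the progenitor list was -0.005, beside 0.00 for Nr2e1.

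**Figure D3:**
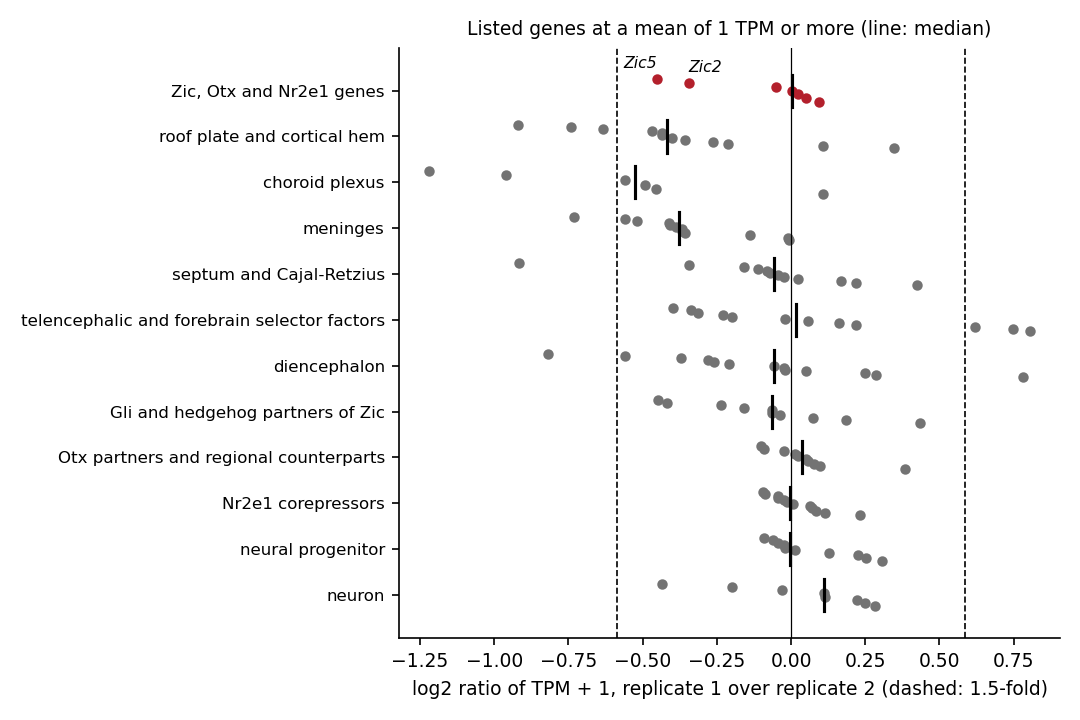
Log2 ratio of TPM + 1 in replicate 1 over replicate 2 (horizontal axis) for the 7 genes (red) and the listed genes of each tissue or partner group (grey) with a mean of 1 TPM or more; black bars are medians and dashed lines mark 1.5-fold. Roof plate and hem, choroid plexus and meninges have their medians at -0.42, -0.53 and -0.38, and the 7 genes at 0.00.

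The transcript tables split each gene's TPM over annotated transcripts. A leading protein-coding transcript carried most of the RNA in 6 of the 7 genes. Nr2e1-201 held 98.4 ± 0.821% of the gene's TPM. Zic1-201 held 95.7% in replicate 1 and 96.0% in replicate 2, and Zic2-201 held 93.3% and 92.3%. Zic1-202, the other coding form, took the remaining 4.35% and 4.01%, and Zic2-202, a retained intron form that encodes no protein, took 6.68% and 7.69%. In Otx1, Otx1-201 held 88.1% and 85.5%, the retained intron form Otx1-203 9.38% and 9.83%, and Otx1-202, which starts 1282 bases upstream of Otx1-201 and is incomplete in the annotation, 2.58% and 4.65%. In Zic5, the coding Zic5-201 held 74.3% in replicate 1 and 78.4% in replicate 2, and the noncoding Zic5-202 held the rest. The Zic5 difference between pools lay in the coding form, whose intervals did not overlap (11.34 TPM in replicate 1 against 16.68 TPM in replicate 2), while the intervals of Zic5-202 overlapped (3.93 and 4.58 TPM).

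Zic4 differed from the other 6 genes in the TPM shares of its transcript classes. Its annotation also holds 6 transcripts with no coding region, against 2 for Nr2e1 and 1 for each of the rest. The part of those counts in the shares was not tested. Protein-coding transcripts held 38.0% of Zic4 TPM in replicate 1 and 41.6% in replicate 2. Retained intron transcripts held 35.3% and 34.1%, and processed transcripts without an open reading frame 26.7% and 24.3%. In the other 6 genes, protein-coding transcripts held between 74.3% (Zic5, replicate 1) and 100% (Zic1). The coding Zic4-201 led with 28.1% and 30.4%, followed by the retained intron form Zic4-211 (21.5% and 20.2%) and the processed form Zic4-202 (20.0% and 17.1%). The others above 1% in either pool were Zic4-206, Zic4-203, Zic4-205, Zic4-207, Zic4-209, Zic4-212, Zic4-208 and Zic4-210, none above 7.21%. The transcripts with a complete coding region held 32.9 ± 2.17% of Zic4, a mean of 15.7 TPM. Counted over protein-coding transcripts alone, Zic4 averaged 19.0 ± 0.318 TPM and moved down the order, below Otx2 (45.8 TPM) and Otx1 (25.7 TPM) and above Zic5 (14.01 TPM), Zic1 (11.6 TPM) and Zic2 (11.1 TPM).

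**Figure D4:**
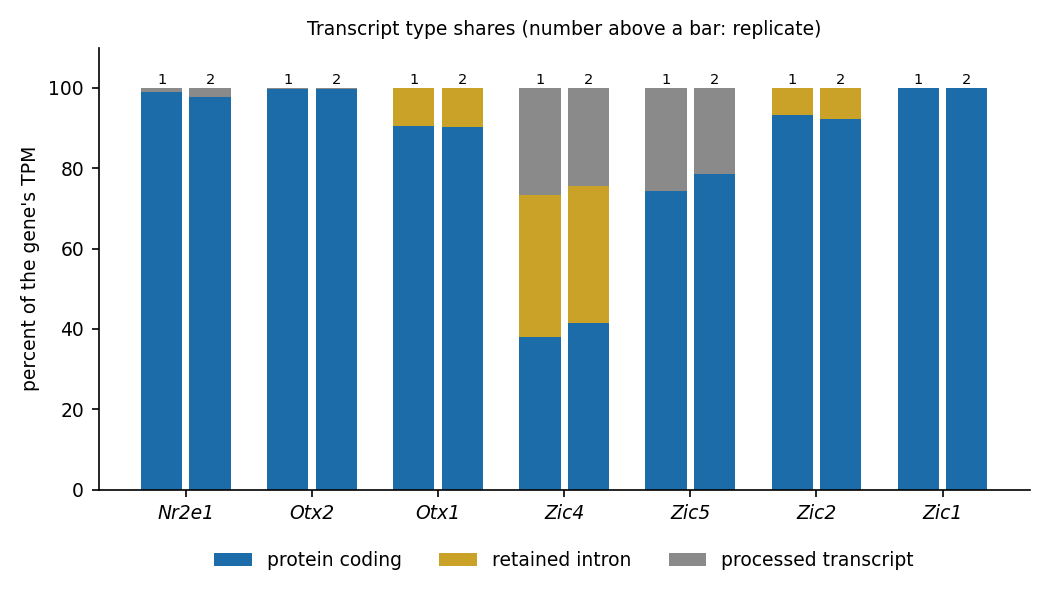
Percent of each gene's TPM (vertical axis) in protein-coding (blue), retained intron (yellow) and processed (grey) transcripts, with a bar for replicate 1 and a bar for replicate 2 of each gene. Zic4 has the smallest protein-coding share of the 7 genes, 38.0% in replicate 1 and 41.6% in replicate 2.

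The annotated Zic4 transcripts also begin at 5 places, where starts within 1 kb were grouped. The shares below come from reads assigned to annotated transcripts, and the use of a start was not measured. In the direction of transcription, the most upstream start, that of Zic4-208 inside the Zic1 span, held 1.35% of Zic4 TPM in replicate 1 and 2.61% in replicate 2. The next group, chr9:91368367-91369498, held 38.6% and 37.7%, the group with Zic4-209 7.01% and 6.48%, the group with Zic4-201 33.0% and 36.1%, and the last, with Zic4-202, 20.0% and 17.1%. The groups kept their order by share in both pools, and those with Zic4-211 and Zic4-201 were the largest.

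Otx2 had 3 annotated start groups, and their shares are likewise those of assigned TPM, not measured start use. The upstream group (Otx2-208, Otx2-202, Otx2-205 and Otx2-207, first bases chr14:48667508-48667644) held 42.8% of Otx2 TPM in replicate 1 and 41.2% in replicate 2. The middle group (Otx2-203 and Otx2-201, first bases chr14:48665106-48665521) held 54.8% and 57.5%, and the downstream group (Otx2-204 and Otx2-206) 2.33% and 1.31%. Otx2-201 led with 50.7% in replicate 1 and 51.9% in replicate 2, and Otx2-202 followed with 30.7% and 29.1%. Otx2-205 held 7.84% and 8.17%, Otx2-203 4.20% and 5.61%, Otx2-208 4.30% and 3.92% and Otx2-204 1.94% and 0.93%. Otx2-201 has 2284 bases in the tables and 2144 in the later annotation that supplied exon positions, so its place in the middle group rests on that later annotation. The other 33 of the 34 transcripts of the 7 genes had equal lengths in both annotations.

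Otx2-202 of the upstream group and Otx2-201 of the middle group share their coding exons except at the 5′ edge of the exon that begins, on the minus strand, at chr14:48661474 or chr14:48661450. The longer form of this exon has 176 bases and the shorter 152, a difference of 24 bases, which keeps the reading frame: 891 coding bases in Otx2-202 and 867 in Otx2-201. The transcripts that carry the longer edge, Otx2-202 and Otx2-207, held 14.35 TPM in replicate 1 against 13.13 TPM in replicate 2, or 29.9 ± 1.13% of Otx2 TPM. The stretch of Otx2-202 around the edge, chr14:48661451-48661474 in capitals with 20 transcript bases on either side and read 5′ to 3′ along the transcript, is shown because these bases are the coding difference between the 2 leading forms.

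Otx2-202 exon edge: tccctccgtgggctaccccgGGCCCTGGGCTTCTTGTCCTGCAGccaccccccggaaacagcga

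**Figure D5:**
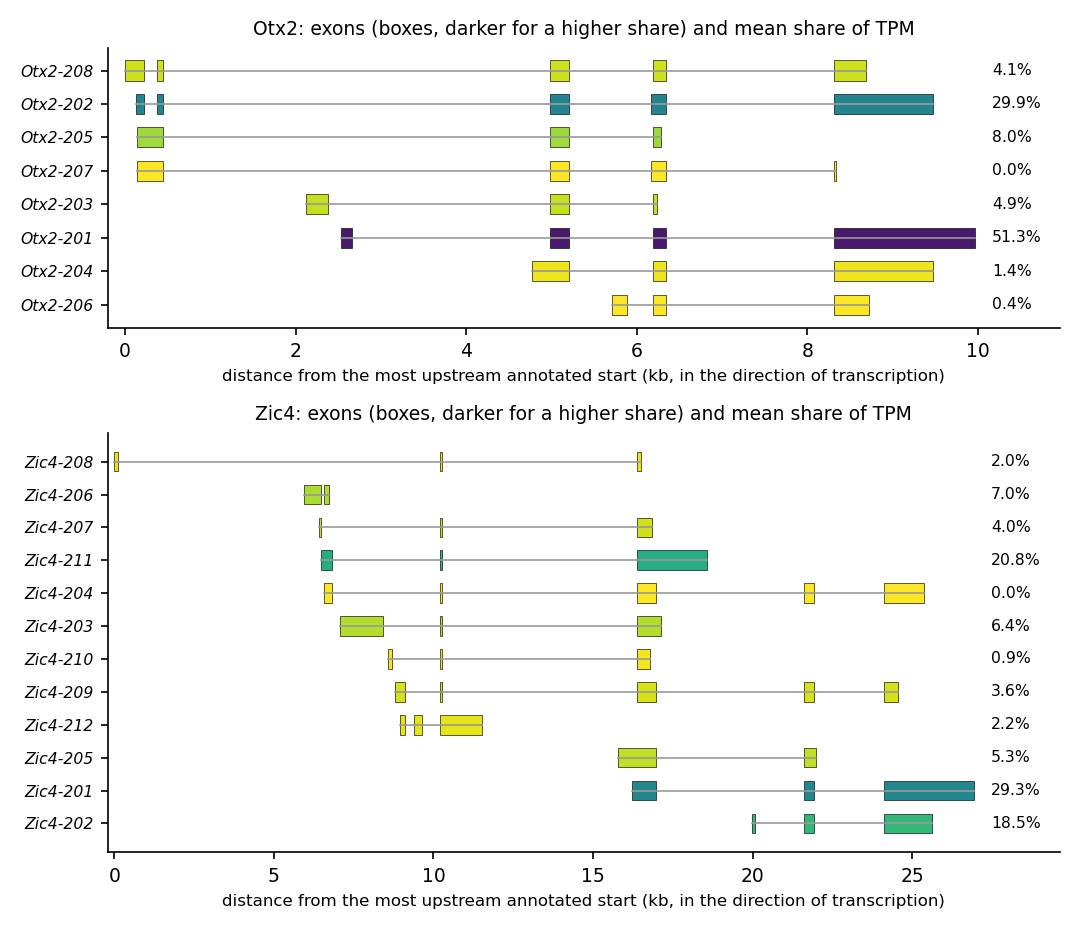
Exons (boxes) of the annotated Otx2 and Zic4 transcripts against the distance from the most upstream start (horizontal axis, kb, in the direction of transcription), darker for a higher share, with the mean share of the gene's TPM at the right. Otx2-201 and Otx2-202 together hold most of Otx2, while Zic4 is spread over Zic4-201, Zic4-211, Zic4-202 and 8 lesser forms.

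Start regions of 300 bases were taken from RefSeq (GRCm38.p6) and matched 5 of the 7 genes. The motifs searched on both strands were the TATA box as TATAAA, the CCAAT box by its own letters, the GC box as GGGCGG, the Otx-preferred homeodomain site as TAATCC, the homeodomain core as TAATTA and the Nr2e1 half-site as AAGTCA, and none contains another. Of 32851 such windows in the genome, 13.6% held TATAAA, 37.4% CCAAT, 35.7% GGGCGG, 7.06% TAATCC, 5.29% TAATTA and 15.1% AAGTCA. The windows at the middle and upstream Otx2 starts are shown because they lie at the annotated start groups assigned most of the Otx2 TPM. The Zic1 window is shown because it held the most CpG dinucleotides and motif matches. Capitals mark the motifs, in the form they have on the transcribed strand, so that GGATTA stands for the Otx-preferred site, ATTGG for the CCAAT box and CCGCCC for the GC box on the other strand.

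Otx2 middle start, chr14:48665060-48665359, minus strand: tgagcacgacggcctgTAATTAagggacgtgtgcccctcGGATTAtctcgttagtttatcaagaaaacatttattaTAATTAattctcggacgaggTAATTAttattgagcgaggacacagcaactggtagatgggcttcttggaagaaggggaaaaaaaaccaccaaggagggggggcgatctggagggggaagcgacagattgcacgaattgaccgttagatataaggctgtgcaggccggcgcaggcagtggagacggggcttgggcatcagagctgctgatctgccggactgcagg

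Otx2 upstream start, chr14:48667459-48667758, minus strand: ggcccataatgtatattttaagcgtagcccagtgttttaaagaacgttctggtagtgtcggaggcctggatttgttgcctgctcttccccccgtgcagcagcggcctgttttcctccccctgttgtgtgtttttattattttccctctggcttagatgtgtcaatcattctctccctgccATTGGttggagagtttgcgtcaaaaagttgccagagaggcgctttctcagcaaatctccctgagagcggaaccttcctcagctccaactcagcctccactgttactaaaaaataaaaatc

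Zic1 start, chr9:91365719-91366018, minus strand: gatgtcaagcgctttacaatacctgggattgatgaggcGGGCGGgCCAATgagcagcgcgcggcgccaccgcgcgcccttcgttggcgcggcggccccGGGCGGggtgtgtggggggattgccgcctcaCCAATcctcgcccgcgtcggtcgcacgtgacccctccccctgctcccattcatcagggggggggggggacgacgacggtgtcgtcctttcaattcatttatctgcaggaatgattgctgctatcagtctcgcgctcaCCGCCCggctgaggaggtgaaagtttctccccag

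The middle Otx2 window held TAATTA at 234, 174 and 154 bases before the first transcribed base and TAATCC on the other strand at 211 bases before it. The upstream Otx2 window held CCAAT on the other strand at 70 bases before the first transcribed base. A second upstream Otx2 window, which overlaps that one (chr14:48667595-48667894), held TATAAA at 192 and TAATTA at 141 bases before its first base. The Zic1 window held CCAAT at 205 and 121 bases before the first transcribed base and GGGCGG at 212 and 152 bases before it and, on the other strand, 16 bases after it. Nr2e1 had AAGTCA 7 bases after its RefSeq first base, chr10:42583590, while Nr2e1-201 begins upstream of that base, at chr10:42583632. Zic4 had AAGTCA 165 bases before its RefSeq first base. Zic5 had GGGCGG 40 bases after its RefSeq first base, chr14:122465658, while Zic5-201 begins upstream of that base, at chr14:122465677. CpG dinucleotides numbered 31 in the Zic1 window, 19 in that of Nr2e1, 16 in the middle Otx2 window, 15 in that of Zic5, 11 in a downstream Otx2 window, 8 in the Zic4 and upstream Otx2 windows and 6 in the second upstream Otx2 window, against a median of 7 over all windows. A match is a run of letters in the window and was not read as a bound site.

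Genes that overlap the 7 bear on how their reads were assigned, and the sources used here do not say whether strand was used in counting. Gm37477, a region that the annotation marks for experimental testing, on the other strand inside Zic4 (chr9:91380519-91381402), shares 468 exon bases with Zic4 and had 4.93 TPM in replicate 1 against 6.55 TPM in replicate 2. The posterior SD of the count was the same for Gm37477 and Zic4, 6.98 counts in replicate 1 and 7.08 in replicate 2, beside 78.01 and 107.86 counts for Gm37477 and 2331.99 and 2290.14 counts for Zic4. Otx2os1, the antisense neighbour of Otx2, had 3.11 and 3.41 TPM, and its count had a posterior SD of 0. In the later annotation it shares 154 exon bases with Otx2. The posterior SD was also 0 for Zic1 and Otx2. If strand was not used, reads wholly within shared exon bases cannot be told apart by strand. Zic4 shares 468 such bases with Gm37477, and both of their counts had a posterior SD above 0. Otx2 shares 154 with Otx2os1 and Zic4 shares 60 with Zic1, where the counts of Otx2, Otx2os1 and Zic1 had a posterior SD of 0. The 60 bases are fewer than the 99 taken off each length to give effective length. Ostm1, which starts 189 bases from Nr2e1 on the other strand and is known for osteoclast function, had 51.81 TPM in replicate 1 against 53.90 TPM in replicate 2. Ehbp1 beside Otx1 had 15.72 and 14.78 TPM, A730094K22Rik beside Zic1 had 1.70 and 2.83 TPM, Gm5089 beside Zic5 had 1.33 and 1.77 TPM, and Gm23469 near Otx2 was at 0 in both.

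The known corepressors of Nr2e1 were abundant beside it. Of 12 listed, 12 were detected in both pools, with a median mean level of 65.9 TPM, 6 higher and 6 lower in replicate 1 and 0 past 1.5-fold, where 1.48% of all genes with a mean of 1 TPM or more were higher in replicate 1 and 2.59% in replicate 2. The deacetylase genes Hdac2 (387.47 TPM in replicate 1 against 370.88 TPM in replicate 2), Hdac1 (181.76 and 171.50 TPM) and Hdac3 (124.99 and 128.95 TPM) were the highest. Bcl11a had 105.79 and 106.86 TPM, the demethylase gene Kdm1a 86.02 and 91.83 TPM, its partner Rcor2 73.79 and 73.53 TPM, and Hdac5 57.22 and 59.07 TPM. Lower members were Bcl11b (44.35 and 37.64 TPM), the atrophin genes Rere (33.45 and 35.64 TPM) and Atn1 (15.80 and 14.51 TPM), Hdac7 (19.41 and 19.74 TPM) and Rcor1 (8.76 and 8.30 TPM). The mean level of Nr2e1 lay below 5 of these 12 means, the lowest of them that of Kdm1a, and above the other 7.

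Of 8 genes reported elsewhere as targets of Nr2e1, 5 were detected in both pools. The cell cycle inhibitor gene Cdkn1a had 28.65 TPM in replicate 1 against 32.59 TPM in replicate 2, Mbd1 24.46 and 23.94 TPM, and Wnt7a 17.82 and 13.23 TPM. Sirt1 had 5.00 and 5.70 TPM and Plce1 4.93 and 5.09 TPM. The astrocyte genes were near the floor: S100b had 0.43 and 0.48 TPM, Aqp4 0.28 and 0.21 TPM, and Gfap 0.02 and 0.08 TPM. No gene of this list passed 1.5-fold between pools.

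Partners and regional counterparts of Otx were detected in 10 of 13 cases, with a median mean level of 22.0 TPM and 0 past 1.5-fold. The highest were Meis2 (90.68 TPM in replicate 1 against 85.91 TPM in replicate 2), Fgf15 (70.03 and 53.38 TPM) and the progenitor factor gene Sox2 (55.20 and 58.82 TPM). Gbx2, which opposes Otx2 at the border of midbrain and hindbrain and is also used in the thalamus, had 23.22 and 22.38 TPM. Of the Gli genes, hedgehog pathway genes and other partners or targets set beside Zic, 10 of 10 were detected and 0 passed 1.5-fold. Apoe, which codes for a lipid transport protein, had 94.45 and 105.62 TPM, Gli3, the main Gli repressor of dorsal forebrain, 38.57 and 39.57 TPM, and the receptor component gene Smo 34.63 and 36.26 TPM.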

How the data were processed

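Total RNA-seq tables of 2 libraries of 1 group were used. Per the labels' protocols, RNA was extracted with mirVana, 10 ng entered each library, with RNA spike-ins, and the protocols list the manual of a SMARTer Ultra Low kit. Per the text deposited with the tables, reads were aligned on mm10 with the GENCODE M4 annotation; the sources used here give neither aligner nor quantifier. The authors' tables give expected counts (estimated reads per feature), TPM over all features, spike-ins included, FPKM, posterior mean TPM with interval bounds, and, for transcripts, the percent of the TPM of their gene. Effective length was length minus 99 bases. The series title names a later deposit that supersedes these tables, not used here.

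Gene and transcript names, positions and exons come from GENCODE M21 (also mm10), matched by identifier without version. The members and gene lists were chosen with earlier results of these data known. Levels were compared as log2(TPM + 1), which understates changes of low genes. A gene was detected at 1 TPM, and folds of 1.5 with 1 sample on each side were counted without a test. The text names the 7 genes and their transcripts at 1% or more, their family relatives and neighbours within 10 kb, and from each list the highest genes, those past 1.5-fold in tissue lists and all Nr2e1 partners and targets; some other listed genes are named as background. Some listed genes are not reported here, and lists and the Zic share were computed without them. Alternatives were a pseudocount of 0.1, TPM of mouse genes alone, posterior mean TPM, FPKM, TMM (edgeR 4.0.16) and DESeq2 1.42.0 size factors on expected counts rounded to whole numbers, other thresholds, each replicate alone and, chosen after seeing the data, protein-coding transcripts alone. The fold counts and scalings were tested on simulated data. Python 3.11.15, numpy 2.4.6, pandas 2.3.3, matplotlib 3.10.9 and R 4.3.3 were used. Intervals and floors cover counting error only, because PCR reads lacking molecular identifiers are not independent molecules.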

Additional observations from a re-analysis of the deposited data

How the results depend on the processing

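No paired analysis was possible because the study has 1 group. The 7 genes were at 1 TPM or more in both pools with every threshold, unit and scaling tried and in each pool alone. With the other pseudocount, 0 passed 1.5-fold, where 7.03% of genes with a mean of 1 TPM or more did. It was also 0 with TPM of mouse genes alone (4.24% of such genes), posterior mean TPM (3.22%) and FPKM (3.17%). With TMM and DESeq2 scaling 0 passed, beside 6.37% and 6.35%. At a 2-fold threshold 0 passed, beside 1.55%. With a lower threshold, 0.32 on the log2 scale, 2 of the 7 passed (Zic5 and Zic2), where 12.9% of genes with a mean of 1 TPM or more did. Counting protein-coding transcripts alone leaves out part of the RNA of each gene except Zic1. Over these transcripts, the mean log2 ratio was -0.67 for Zic1 over Zic4 and -0.81 for Otx1 over Otx2, both pairs still separated. On that basis it was -0.30 for Zic2 over Zic5 and 0.44 for Zic4 over Zic5, neither separated, and the Zic1 share of the 4 Zic genes was 20.95%, beside 12.97% over all transcripts. The median log2 level of the 7 genes, 4.88 as reported, was 4.84 with a pseudocount of 0.1, 5.01 with TPM of mouse genes alone, 4.85 with posterior mean TPM, 4.18 with FPKM and 4.33 over protein-coding transcripts. Each pool alone gave -2.02 and -1.88 for Zic1 over Zic4 and 1.09 to 1.63 for Zic4 over Zic5. Of the other values, 85 stayed within a set limit, and 13 moved past it. For the log2 ratio of a gene between pools, the limit was a fixed 0.1. For levels and transcript shares, it was the SD between the pools. The value of 1 pool alone always lies within that SD of the mean, so those values could not move past it. The Nr2e1 ratio between pools, 0.00 as reported, was -0.02 with FPKM. With 2 pools of 1 age no comparison between conditions exists, and no difference was tested.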

Other observations

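Of 13 other listed region factors of the forebrain, 12 were detected in both pools, 6 higher and 6 lower in replicate 1. The 3 past 1.5-fold were all higher in replicate 1, where 1.48% of all genes with a mean of 1 TPM or more were. They were Nkx2-1 of the ventral telencephalon (54.33 TPM in replicate 1 and 30.69 TPM in replicate 2), Gsx2 (26.50 and 15.39 TPM) and Dlx2 (109.30 and 70.84 TPM) of the ganglionic eminences. Among the 6 lower in replicate 1, Lhx2 had 161.32 TPM in replicate 1 and 185.41 TPM in replicate 2, Emx1 58.87 and 73.47 TPM, Nr2f1 67.99 and 89.83 TPM, and Nr2f2 76.02 and 96.35 TPM. The last 4 genes were picked from the list after their values were seen, and no difference was tested.

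Nr2e3, the retinal relative of Nr2e1, had 1 expected count in replicate 1 and 5 in replicate 2 (0.03 and 0.12 TPM, where 3 counts correspond to 0.0907 and 0.0738 TPM). The deposited intervals, 0.160 to 0.931 TPM in replicate 1 and 0.260 to 1.08 TPM in replicate 2, lay above the deposited TPM, around posterior mean TPM of 0.50 and 0.63.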
